A study of Homo sapiens with 8 samples.

Results

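Aminoacyl-tRNA synthetases are the enzymes that join each amino acid to its transfer RNA (tRNA), and their messenger RNAs were followed here in SH-SY5Y, a human neuroblastoma cell line in long use. The members are the protein-coding genes whose symbols have the form of an amino acid letter followed by ARS, with EPRS1, FARSA and FARSB. This rule found 37 of the 67060 genes in the count table, 20 cytosolic and 17 mitochondrial (symbols ending in 2). The labels call the cells neuronal progenitors. Both groups received adenovirus, 0.5 ul at 80% confluence, and RNA was taken after 48 h. The ERRg group received BioID-Flag-Esrrg, a biotin ligase fused to Flag-tagged estrogen-related receptor gamma, and the control group, called GFP, received BioID-GFP-NLS, the same ligase on green fluorescent protein (GFP) that a localisation signal sends to the nucleus. BioID and the virus are therefore common to both groups. Each group has 4 libraries made from total RNA depleted of ribosomal RNA, and the comparison asks what expression of the ERRg fusion does to transcript levels.

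A synthetase activates its amino acid with ATP and transfers it to the matching tRNA, which then carries it to the ribosome. Cytosolic and mitochondrial protein synthesis mostly use separate enzymes encoded by separate nuclear genes, but GARS1 (glycine) and KARS1 (lysine) each give both forms. EPRS1 holds the glutamate and proline enzymes in 1 protein, FARSA and FARSB are the alpha and beta subunits of the cytosolic phenylalanine enzyme, and mitochondrial glutamine tRNA is charged by a different route, through GATB, GATC and QRSL1. Several cytosolic synthetases sit in a multi-synthetase complex held by the scaffold proteins AIMP1, AIMP2 and EEF1E1 (AIMP3). Many cytosolic synthetase genes are described as targets of ATF4, the transcription factor of the amino acid response. Estrogen-related receptors are nuclear receptors known for activating genes of oxidative metabolism.

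Each GFP library held between 27.7 and 35.5 M reads in genes and each ERRg library between 21.02 and 23.0 M, and the tested members had between 141 and 12018 reads in a library. Of all reads, 20.9% ± 3.58 fell outside annotated exons in the GFP group and 46.7% ± 1.31 in the ERRg group (± is the SD over n = 4 libraries throughout). ESRRG, the delivered gene, stood at 34.8 ± 2.34 CPM (counts per M reads, scaled to TMM effective library sizes) in GFP and 807 ± 73.1 CPM in ERRg, and these counts do not separate viral from cellular transcripts. Of 8 noradrenergic neuroblastoma markers 6 were at 1 CPM or more in every library (TH is listed at 0), as were 4 of 6 neural progenitor markers, 6 of 7 fibroblast markers and 0 of 6 blood cell markers. The summed level of the noradrenergic markers ran from 589 to 678 CPM in GFP and from 350 to 413 CPM in ERRg, that of the progenitor markers from 871 to 1081 and from 621 to 633 CPM, and that of the fibroblast markers from 1577 to 1765 and from 920 to 1011 CPM. With TMM these sums were lower in ERRg, although 2 of 7 fibroblast and 1 of 4 tested progenitor markers were called higher. With the offsets described further on, 1 noradrenergic marker was higher, 1 lower and 4 not called. In that fit 1 progenitor marker was higher and 3 lower, and 1 fibroblast marker was higher, 5 lower and 1 not called. The sums and the share of reads outside exons differed between the groups, and their part in the results was not tested. In such bulk samples, fewer cells of a type and less RNA per cell cannot be told apart.

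VARS1, VARS2 (the cytosolic and mitochondrial valine enzymes) and SARS2 (mitochondrial serine) are listed at 0 in all 8 libraries and could not be tested. VARS2 and VARS1 lie on chromosome 6 between 30908242 and 31795953 (GRCh38), a stretch in which 44 of 51 coding genes are at 0 (86.3%), against 2837 of 19920 coding genes in the whole annotation (14.2%). SARS2 shares 46.2% of its exon bases with AC011455.2, a gene on the same strand that is also at 0 throughout. A value of 0 for these 3 genes was not read as absence of their RNA. The other 34 members passed the low-count filter.

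Most synthetase transcripts were lower in the ERRg libraries with TMM scaling, but not with library totals. By edgeR's quasi-likelihood test (adjusted p under 0.05, Benjamini-Hochberg over 21993 genes), 23 of 34 members were lower, 4 were higher and 7 were not called. The background is 35.9% lower and 38.8% higher over all genes tested, and 50.6% lower and 29% higher over the coding genes of the same fit. Among the cytosolic members 13 of 19 were lower and 3 higher, with a median log2 fold change (ERRg over GFP) of -0.42. Among the mitochondrial members 10 of 15 were lower and 1 higher, with a median of -0.40. The median over all genes tested was 0.09 and over coding genes -0.30. No overlap between the 4 GFP and the 4 ERRg values was seen for 16 of 19 cytosolic and 11 of 15 mitochondrial members, against 68.4% of all genes tested. Tested against a threshold of 1 on the log2 scale, 3 cytosolic members (FARSA, QARS1 and AARS1) and 1 mitochondrial member (FARS2) were lower and 0 higher, beside 10.5% lower and 7.69% higher over all genes.

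The counts depend on how libraries are scaled. With library totals in place of TMM, 6 cytosolic members were higher and 8 lower, and 5 mitochondrial members were higher and 5 lower, while 53.6% of all genes were called higher and 24.5% lower. With upper-quartile factors the split was 6 higher and 9 lower for cytosolic and 3 higher and 7 lower for mitochondrial members, beside 50.2% and 27.5% of all genes. These scalings shift the log2 fold changes of all genes by about the same amount. With TMM the median was -0.41 over the members and 0.09 over all genes, and with library totals the medians were -0.0045 and 0.495. Coding genes tested and scaled alone had a median of 0.02, and the members one of -0.09.

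**Figure D1:**
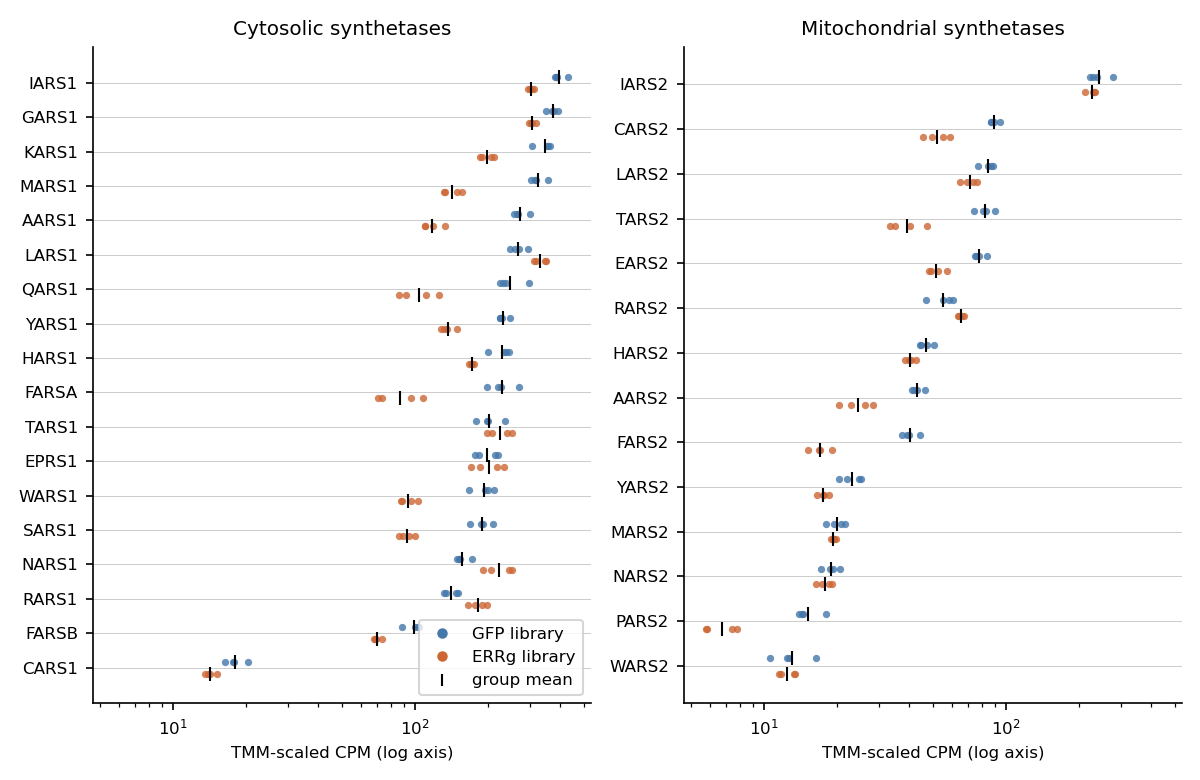
TMM-scaled CPM in each library of the tested synthetases that are reported one by one (log axis), cytosolic on the left and mitochondrial on the right, with GFP libraries in blue, ERRg libraries in orange and group means as black ticks. AARS1, FARSA and MARS1 are separated by a wide gap with ERRg below, NARS1 and RARS1 have ERRg above, and EPRS1, TARS1 and IARS2 overlap.

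Fold changes of the members followed the GC content of their transcripts. Over the 34 members the log2 fold change and the GC content of the longest annotated transcript had a Pearson r of -0.81 and a Spearman rho of -0.80, a description across genes that share the same 8 libraries. Over the 13426 coding genes tested the values were -0.66 and -0.70. All 11 members between 50% and 55% GC and all 4 members between 55% and 61% GC were lower, with medians of -1.04 and -1.03, while coding genes in these ranges had medians of -0.68 and -1.08. In the range from 40% to 45% GC, 4 of 13 members were higher, 3 lower and 6 not called, with a median of 0.02 against 0.21 for coding genes. Between 45% and 50% GC the medians were -0.34 for 6 members and -0.27 for coding genes. Of the 4 ranges, the members' median lay furthest below that of coding genes between 50% and 55% GC.

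**Figure D2:**
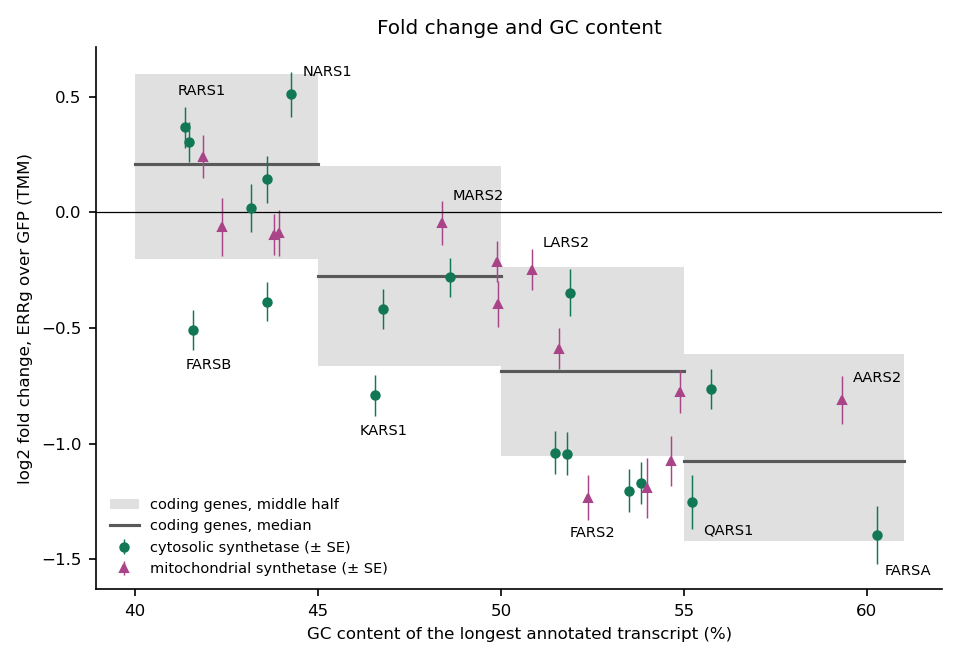
Log2 fold change of each synthetase (ERRg over GFP, TMM scaling, bars ± SE) that is reported one by one against GC content of its longest annotated transcript in percent, with circles for cytosolic and triangles for mitochondrial genes. Grey boxes give the interquartile range and grey lines the median of coding genes in 4 GC ranges, and the synthetases fall along the same slope, with FARSB, IARS1, KARS1, FARS2, AARS1, PARS2, MARS1 and TARS2 beneath the boxes.

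A separate fit therefore gave each coding gene an offset for GC content, transcript length and gene span in each library, and both values stand side by side from here on. With the offsets, 12 of 19 cytosolic members were lower and 2 higher, and 8 of 15 mitochondrial members were lower and 3 higher, against 41.4% lower and 30.5% higher over the 13426 coding genes. The median log2 fold change went from -0.42 to -0.19 for cytosolic and from -0.40 to -0.14 for mitochondrial members. That of all coding genes went from -0.30 to -0.07 as well. This fit also scaled coding genes alone, which without offsets gave medians of -0.09 for the members and 0.02 for coding genes. The parts of the scaling and of the offsets in these shifts were not separated. The correlation with GC content went to -0.02, which largely follows from offsets fitted to GC content and is no separate result. In both fits 15 members were lower (33.1% of coding genes were), 2 were higher (19.4%) and 2 were called in opposite directions (6.68%). The opposite calls were for AARS2 and HARS2, and the members higher in both fits were NARS1 and RARS1.

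The members called in the same direction in each of 27 fits are AARS1, FARSA, KARS1, MARS1, QARS1, SARS1, WARS1, FARS2, PARS2 and TARS2, all lower, and NARS1, higher. These fits cover the scalings, DESeq2, limma-voom, both kinds of offset, the replicate block and each library left out, with TMM and with the offsets. The 10 lower members are 29.4% of those tested, beside 22.9% of coding genes, and the single higher member is 2.94%, beside 14.8%. RARS1 was higher in 25 of the 27 fits and FARSB lower in 26.

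**Figure D3:**
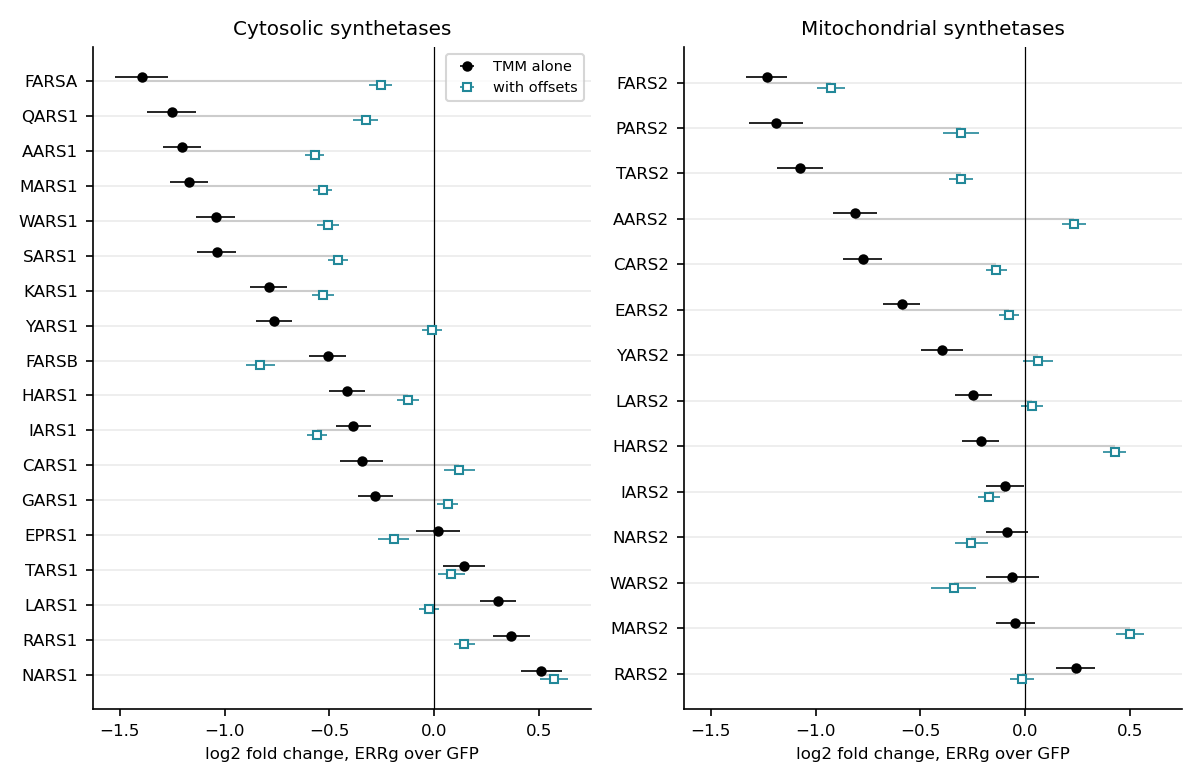
Log2 fold change (ERRg over GFP, bars ± SE) of each synthetase reported one by one, with TMM scaling alone (black circles) and with the offsets for GC content, length and span (open squares), cytosolic on the left and mitochondrial on the right. Most squares lie nearer to 0 than the circles, while those of FARSB and IARS1, for example, lie further down and those of AARS2, HARS2 and MARS2 lie above 0.

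AARS1 charges alanine tRNA and lies on chromosome 16 from 70252295 to 70289543 (minus strand, GRCh38). Its CPM in GFP replicates 1 to 4 were 266, 299.5, 267 and 257, and in ERRg replicates 1 to 4 they were 110, 111, 133 and 120. All ERRg libraries lay far below all GFP libraries. The level fell from 272 ± 18.7 to 118 ± 10.7 CPM, 2.30-fold, a log2 fold change of -1.20 (SE 0.09, edgeR adjusted p = 4.14e-10), which was -0.57 (SE 0.05) with the offsets. MARS1, the methionine enzyme on chromosome 12 from 57475445 to 57517569, was at 317, 354, 303 and 314 CPM in GFP and at 132, 133, 157 and 150 CPM in ERRg. The groups were again apart by more than their own spread. MARS1 fell by 1.17 on the log2 scale (SE 0.09) with TMM and by 0.53 with the offsets. Its exons share 12.4% of their bases with ARHGAP9 and DDIT3 on the opposite strand, and how strand was counted is not given in the sources used here.

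FARSA, on chromosome 19 from 12922479 to 12934037, had the largest fall of the 34 members with TMM. Its CPM were 220, 270.5, 198 and 227 in GFP and 73.5, 70.5, 108 and 96.2 in ERRg. The ERRg values do not reach the GFP values, and ERRg replicates 1 and 2 are below replicates 3 and 4. FARSA fell by 1.40 on the log2 scale (SE 0.13, edgeR adjusted p = 3.75e-09), and its log2 fold change shrank to -0.26 (SE 0.05) with the offsets. Its longest transcript has the highest GC content of the 34 tested members, 60.3%. FARSB, its partner subunit, has a transcript of 41.6% GC and moved the other way between the fits, from -0.51 to -0.83. FARSB was at 104, 104, 101 and 88.4 CPM in GFP and at 69.5, 68.4, 73.0 and 67.9 CPM in ERRg, without overlap. The number of FARSA reads per FARSB read was 2.32 ± 0.322 in GFP and 1.25 ± 0.235 in ERRg, from 1.97 to 2.61 against 1.03 to 1.48. Both subunits were lower in both fits, and which of them fell further differs between the fits.

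QARS1 (glutamine), SARS1 (serine), WARS1 (tryptophan) and KARS1 (lysine, both compartments) also fell in both fits. QARS1 stood at 232, 296, 225 and 238 CPM in GFP and at 92.2, 86.1, 126 and 112 CPM in ERRg, log2 fold changes of -1.25 and, with the offsets, -0.33. SARS1 fell from 190 ± 17.4 to 92.5 ± 6.25 CPM and WARS1 from 194 ± 18.7 to 94.2 ± 7.36 CPM. Both lost about the same with TMM (-1.04 each) and with the offsets (-0.46 for SARS1 and -0.51 for WARS1). For KARS1 the libraries read 352, 356, 363 and 306 CPM in GFP and 187, 190, 212 and 206 CPM in ERRg. KARS1 has a transcript of only 46.6% GC, and its value of -0.79 with TMM lay below the coding median of its GC range, -0.27, while its value with the offsets was -0.53. In each of these 4 genes, every ERRg library was below every GFP library.

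The remaining cytosolic members that fell with TMM did so by less, and for several the call was lost with the offsets. IARS1 (isoleucine), with the highest CPM of the family in GFP at 396 ± 24.1, was at 303 ± 6.94 CPM in ERRg, log2 fold changes of -0.39 and -0.56. HARS1 (histidine) fell from 230 ± 19.7 to 172 ± 3.38 CPM, -0.42 and -0.13. Both passed the test in both fits. However, the HARS1 call with the offsets was lost without GFP replicate 1 or 2 or ERRg replicate 2 or 4 (-0.14 to -0.10). Neither gene was called with upper-quartile factors, library totals or coding genes alone. These values were -0.08, 0.02 and -0.07 for IARS1 and -0.11, -0.01 and -0.10 for HARS1. YARS1 (tyrosine) was lower with TMM at -0.76 but stood at -0.01 with the offsets (edgeR adjusted p = 0.87). CARS1 (cysteine) and GARS1 (glycine) were lower with TMM at -0.35 and -0.28 and not called with the offsets at 0.12 and 0.06. With an offset for GC alone CARS1 was called higher (0.205). The direction of YARS1, CARS1 and GARS1 thus rests on the fit chosen.

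NARS1, the asparagine enzyme on chromosome 18 from 57600656 to 57622213, was the member that rose most. It was at 153, 152, 172 and 150 CPM in GFP and at 252, 244, 192 and 207 CPM in ERRg. The lowest ERRg library lay above the highest GFP library. NARS1 rose 1.43-fold, a log2 fold change of 0.51 (SE 0.10, edgeR adjusted p = 8.12e-05) with TMM and 0.57 (SE 0.07) with the offsets. Its transcript has 44.3% GC, and the value lay within the interquartile range of coding genes of its GC range. RARS1 (arginine) was at 133, 135, 151 and 148 CPM in GFP and at 198, 191, 166 and 178 CPM in ERRg, again without overlap. Its values of 0.37 and 0.14 were both called, although the call with the offsets was lost without GFP replicate 1 (0.11). With an offset for GC alone RARS1 was not called (0.05). LARS1 (leucine) was higher with TMM at 0.30 (0.20 and not called without GFP replicate 4) and not called with the offsets at -0.03. TARS1 (threonine) was called in neither fit, at 0.14 and 0.08. EPRS1 was not called with TMM, at 0.02, and was lower with the offsets, at -0.19. This call was lost without GFP replicate 2 or 3 or ERRg replicate 3 or 4 (-0.18 to -0.14), and with an offset for GC alone (-0.14). With upper-quartile factors, library totals or coding genes alone, EPRS1 was called higher (0.33, 0.43 and 0.34), as was TARS1 (0.45, 0.55 and 0.46). TARS1 was also called higher with at least 10 reads in every library (0.25).

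Among transcript levels per kb of exon, FARSA was highest in GFP at 94.0 CPM per kb, followed by GARS1 at 89.6 and KARS1 at 84.6. In ERRg the order changed to GARS1 at 73.7, NARS1 at 54.7 and RARS1 at 53.5 CPM per kb among cytosolic members, with FARSA at 35.7. These levels rest on TMM alone, and with the offsets the log2 fold change of FARSA shrank from -1.40 to -0.26. CARS1 was the lowest cytosolic member in both groups, at 1.81 and 1.43 CPM per kb. Mitochondrial members were lower as a class, with a median of 10.8 CPM per kb against 38.4 for cytosolic members in GFP. IARS2 was the exception at 58.2 CPM per kb in GFP and 54.4 in ERRg.

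The synthetases of the multi-synthetase complex did not move together. IARS1, KARS1, MARS1 and QARS1 were lower in both fits, RARS1 was higher in both, LARS1 was higher with TMM alone, and EPRS1 was lower with the offsets alone. Of the scaffold proteins, AIMP1 rose from 40.7 ± 4.84 to 72.2 ± 12.7 CPM, log2 fold changes of 0.83 and, with the offsets, 0.33. AIMP2 fell from 46.2 ± 3.34 to 23.6 ± 2.94 CPM, at -0.97 and -0.26. EEF1E1 was at 11.2, 12.2, 11.2 and 10.8 CPM in GFP and 11.3, 9.45, 8.03 and 6.41 CPM in ERRg, lower in both fits at -0.37 and -0.76 although the groups overlap. Without ERRg replicate 4 the TMM call of EEF1E1 was lost (-0.26). By catalytic fold, 10 of 17 class I enzymes (EPRS1 counted here) were lower and 3 higher with TMM, and 13 of 17 class II enzymes were lower and 1 higher. With the offsets these counts were 8 and 2 in class I and 12 and 3 in class II. These counts stand beside 50.6% lower and 29% higher among coding genes with TMM and 41.4% and 30.5% with the offsets.

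Mitochondrial synthetases are nuclear-encoded enzymes that serve the small set of proteins made inside mitochondria. FARS2 (phenylalanine), on chromosome 6 from 5261044 to 5829192, fell most. It was at 40.03, 44.2, 37.2 and 39.0 CPM in GFP and at 15.2, 16.9, 19.1 and 17.04 CPM in ERRg, so every GFP library was above every ERRg library. With TMM the log2 fold change of FARS2 was -1.23 (SE 0.10, edgeR adjusted p = 7.69e-10) and -0.93 (SE 0.06) with the offsets, the lowest value of any member in the second fit. PARS2 (proline) was at 14.6, 18.2, 13.97 and 14.4 CPM in GFP and at 5.79, 5.81, 7.78 and 7.43 CPM in ERRg. TARS2 (threonine) was at 80.6, 90.7, 74.2 and 82.9 CPM in GFP and at 33.2, 34.9, 47.4 and 40.4 CPM in ERRg. Neither gene overlapped between the groups, and both fell, PARS2 by 1.19 and TARS2 by 1.08 on the log2 scale with TMM and by 0.31 each with the offsets.

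CARS2 (cysteine) fell from 89.4 ± 3.56 to 52.3 ± 5.90 CPM, at -0.77 and -0.14. It was called in both fits, although the call with the offsets was lost without ERRg replicate 1 (-0.12). With an offset for GC alone CARS2 was not called (-0.03). AARS2 (alanine) and HARS2 (histidine) were called in opposite directions. AARS2 was at 43.2, 46.2, 40.8 and 41.7 CPM in GFP and 22.9, 20.5, 28.4 and 26.2 CPM in ERRg, a log2 fold change of -0.81 with TMM that became 0.23 with the offsets (edgeR adjusted p = 0.00134). HARS2 went from -0.21, a call lost without ERRg replicate 1 (-0.20) or 2 (-0.22), to 0.43. AARS2 has 59.3% GC, and HARS2 shares 11.7% of its exon bases with HARS1 on the opposite strand and 4.07% with ZMAT2 on the same strand, stretches in which the gene of origin of a read is uncertain.

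EARS2 (glutamate), YARS2 (tyrosine) and LARS2 (leucine) were lower with TMM, at -0.59, -0.40 and -0.25, and not called with the offsets, at -0.08, 0.06 and 0.03. LARS2 was not called with TMM without ERRg replicate 2 (-0.22), and was called higher with an offset for GC alone (0.23). RARS2 (arginine) was the mitochondrial member that was higher with TMM, at 0.24, and it stood at -0.01 with the offsets. Its call was lost when any library but ERRg replicate 3 was left out, with values from 0.12 to 0.24. MARS2 (methionine) was at 20.8, 21.7, 19.5 and 18.2 CPM in GFP and at 19.0, 19.3, 19.8 and 19.5 CPM in ERRg, overlapping groups with a log2 fold change of -0.05 that was not called. With the offsets MARS2 was higher at 0.50. IARS2, NARS2 (asparagine) and WARS2 (tryptophan) were not called with TMM, at -0.10, -0.09 and -0.06. With the offsets IARS2, NARS2 and WARS2 were lower, at -0.17, -0.26 and -0.34. Library totals instead made IARS2 (0.31), NARS2 (0.31), WARS2 (0.34) and MARS2 (0.36) called higher. So did coding genes alone for IARS2 (0.22), NARS2 (0.22) and MARS2 (0.27), and upper-quartile factors for IARS2 (0.21) and MARS2 (0.26). The direction of IARS2, NARS2 and WARS2 thus rests on the fit chosen. No mitochondrial synthetase was higher in both fits, 5 were lower in both.

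The summed level of the cytosolic members was 4107, 4389, 4279 and 3895 CPM in GFP and 3123, 3069, 3051 and 3004 CPM in ERRg, a log2 ratio of -0.44. For the mitochondrial members the sums were 938, 982, 1001 and 909 CPM in GFP and 719, 719, 758 and 756 CPM in ERRg, a log2 ratio of -0.38. Every ERRg sum lay below every GFP sum with TMM. With library totals in place of TMM the log2 ratios were -0.04 and 0.03.

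Ratios between the cytosolic and the mitochondrial enzyme for an amino acid do not depend on library scaling. Of 16 such ratios, 14 had no overlap between the groups, 8 of them higher and 6 lower in ERRg. The share among ratios of other gene pairs was not computed, and 68.4% of all single genes tested had no overlap. EPRS1 and FARS2 each enter the ratios more than once. MARS1 reads per MARS2 read were 15.2, 16.3, 15.6 and 17.3 in GFP and 6.97, 6.90, 7.91 and 7.67 in ERRg. The methionine ratio thus dropped by 1.13 on the log2 scale, and by 1.03 with the offsets. WARS1 reads per WARS2 read fell from 15.2 ± 2.87 to 7.56 ± 0.913, by 0.99, and by 0.17 with the offsets. TARS1 reads per TARS2 read rose from 2.51 ± 0.473 to 5.96 ± 1.56, and EPRS1 reads per PARS2 read from 13.2 ± 1.80 to 31.2 ± 9.17. These last ratios changed by 1.23 and 1.21 on the log2 scale and by 0.39 and 0.11 with the offsets. NARS1 per NARS2 went from 8.28 ± 0.757 to 12.6 ± 2.43, by 0.59, and AARS1 per AARS2 from 6.34 ± 0.208 to 4.87 ± 0.365, by -0.38. With the offsets the asparagine and alanine ratios moved further, to 0.83 and -0.80. Over the 16 ratios the change and the difference in GC content between the genes had a Pearson r of -0.80, as a description, and 3 ratios changed sign with the offsets (EPRS1/EARS2, LARS1/LARS2 and FARSA/FARS2).

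**Figure D4:**
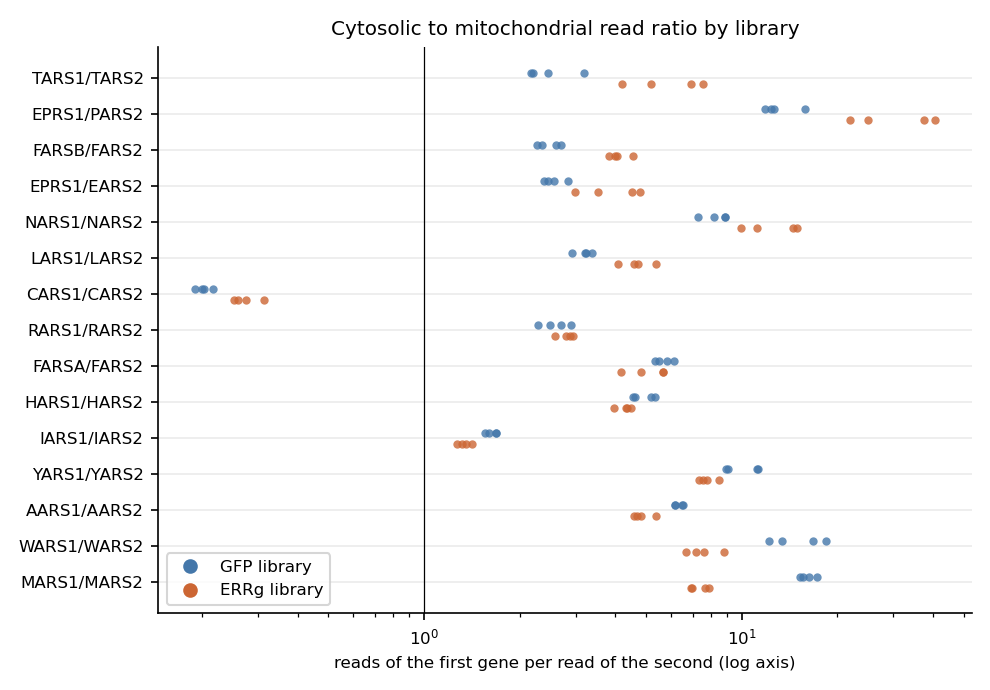
Reads of the cytosolic synthetase per read of the mitochondrial synthetase for the same amino acid in each library (log axis), for the ratios reported one by one, GFP in blue and ERRg in orange, ordered by the size of the change. TARS1/TARS2 and EPRS1/PARS2 at the top are higher in ERRg, MARS1/MARS2 and WARS1/WARS2 at the bottom are lower, and FARSA/FARS2 and RARS1/RARS2 overlap.

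Promoter sequences were searched because many synthetase genes are described as ATF4 targets. Of the 37 symbols, 30 matched the RefSeq promoter table (GRCh38.p14, 250 bases before to 50 after each start), with 39 windows. The core of the C/EBP-ATF response element, TGATGNAA on either strand, was in a window of 8 members, 20.5% of the members' windows beside 3.62% of all 35116 windows. The stretches of 30 bases around these matches are shown because ATF4 is described to act on such genes through elements of this kind. Whether ATF4 binds at these matches was not tested. Each is written 5′ to 3′ on the strand of the gene, with the match in capitals.
AARS1, chr16:70289675-70289704, minus strand: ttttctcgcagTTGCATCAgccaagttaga
CARS1, chr11:3057407-3057436, minus strand: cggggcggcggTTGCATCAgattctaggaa
GARS1, chr7:30594834-30594863, plus strand: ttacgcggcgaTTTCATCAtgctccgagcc
IARS1, chr9:92293692-92293721, minus strand: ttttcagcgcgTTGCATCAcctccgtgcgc
MARS1, chr12:57488053-57488082, plus strand: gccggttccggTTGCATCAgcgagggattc
NARS1, chr18:57621804-57621833, minus strand: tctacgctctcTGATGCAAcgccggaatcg
TARS1, chr5:33440956-33440985, plus strand: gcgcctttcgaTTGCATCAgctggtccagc
YARS2, chr12:32756076-32756105, minus strand: atccacactgcTGATGGAAaaattaagttt

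In AARS1, CARS1, IARS1, MARS1, NARS1 and TARS1 the matched letters are the same apart from strand, whereas GARS1 and YARS2 differ at the free base. The 8 genes did not share a direction. NARS1 was higher in both fits, AARS1, IARS1 and MARS1 were lower in both, CARS1, GARS1 and YARS2 were lower with TMM alone, and TARS1 was called in neither. Their median log2 fold change was -0.37 with TMM and 0.06 with the offsets, beside -0.51 and -0.26 for the 21 tested members whose promoter windows lack these letters.

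The short estrogen-related receptor element AAGGTCA was in a window of 2 members, FARSA and TARS1 (5.13% of the members' windows, 3.92% of all). The extended form TNAAGGTCA was found for FARSA alone (2.56% and 0.951%). Both matches are shown with their flanks, on the strand of the gene and with AAGGTCA or its complement in capitals, because this is the element named for the receptor that the virus delivered.
FARSA, chr19:12933928-12933956, minus strand: ggcggtgcttcTGACCTTgagataatcaa
TARS1, chr5:33440763-33440791, plus strand: gcgtccagaccAAGGTCAgcggagagtag

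FARSA was lower in both fits and TARS1 was not called in either. A match is a description and no match says only that these letters are not in the window. The ETS factor motif CCGGAAG was the most frequent of those searched, in windows of 16 members (48.7% of the members' windows, 10.3% of all). Overlapping windows of EARS2, GARS1 and SARS1 hold the same site, and HARS1 and HARS2 share theirs, so some sites count more than once. The NRF1 core GCGCATGCG was found for MARS2 (2.56% and 1.92%). HARS1 and HARS2 are transcribed away from each other, with RefSeq starts 85 bases apart, and their promoter windows share 184 bases. The 84 bases between the starts are shown on the plus strand because both histidine enzymes face them, with 2 ETS matches in capitals.
HARS1 to HARS2, chr5:140691371-140691454, plus strand: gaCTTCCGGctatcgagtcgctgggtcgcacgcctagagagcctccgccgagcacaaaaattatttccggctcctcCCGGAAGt

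HARS1 reads per HARS2 read were 5.33, 5.19, 4.63 and 4.55 in GFP and 4.48, 4.31, 4.34 and 3.96 in ERRg. The groups did not overlap, although the gap between the lowest GFP and the highest ERRg library is small.

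ATF4 itself fell from 241 ± 10.8 to 122.5 ± 7.02 CPM with TMM, a log2 fold change of -0.97, and was not called with the offsets at 0.07. Among the 7 genes of the integrated stress response list, which senses uncharged tRNA and other stresses, 4 were lower and 2 higher with TMM. With the offsets 4 were lower and 0 higher. Of coding genes 50.6% were lower and 29% higher with TMM, and 41.4% and 30.5% with the offsets. GCN1, the activator of the kinase that binds uncharged tRNA, was at 516, 610, 509 and 546 CPM in GFP and at 209, 214, 296 and 263 CPM in ERRg, lower in both fits at -1.15 and -0.53. That kinase, EIF2AK4 (GCN2), was lower at -0.43 and -0.34, and the heme-regulated kinase EIF2AK1 at -0.62 and -0.44. EIF2AK3 (PERK) was called in neither fit, at 0.00 and -0.08. EIF2AK2 (PKR) was higher with TMM at 0.36 and lower with the offsets at -0.23, and IMPACT, an inhibitor of GCN1 action, was higher with TMM at 0.33 and not called with the offsets at -0.10. The TMM call of EIF2AK2 was lost without GFP replicate 1 (0.25), and that of IMPACT without GFP replicate 1 (0.22), 2 (0.26) or 4 (0.27).

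Of 15 tested ATF4 targets outside the synthetase family, 11 were lower and 4 higher with TMM, and 7 were lower and 3 higher with the offsets, beside 50.6% lower and 29% higher among coding genes with TMM and 41.4% and 30.5% with the offsets. CHAC1, which breaks down glutathione, was at 6.27, 6.65, 5.998 and 7.64 CPM in GFP and at 1.31, 1.61, 1.72 and 1.91 CPM in ERRg. It was lower in both fits at -2.01 and -0.71. PHGDH, the first enzyme of serine synthesis, fell from 144 ± 15.6 to 43.4 ± 6.35 CPM, at -1.73 and -1.27. The pseudokinase TRIB3 fell at -1.49 and -0.48, and the amino acid transporter SLC7A5 at -1.42 and -0.45. The secreted factor GDF15 was lower with TMM at -1.38 and not called with the offsets at -0.12, as was DDIT3 (CHOP) at -0.72 and 0.00. ASNS, asparagine synthetase, the enzyme that makes asparagine, was higher in both fits at 0.87 and 1.17, from a low level of 0.976 ± 0.314 CPM in GFP to 1.78 ± 0.297 CPM in ERRg. The other higher targets with TMM were ATF3 at 0.71, SLC7A11 at 0.77 and VLDLR at 1.01, named after their values were seen, of which SLC7A11 was not called with the offsets at 0.04.

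**Figure D5:**
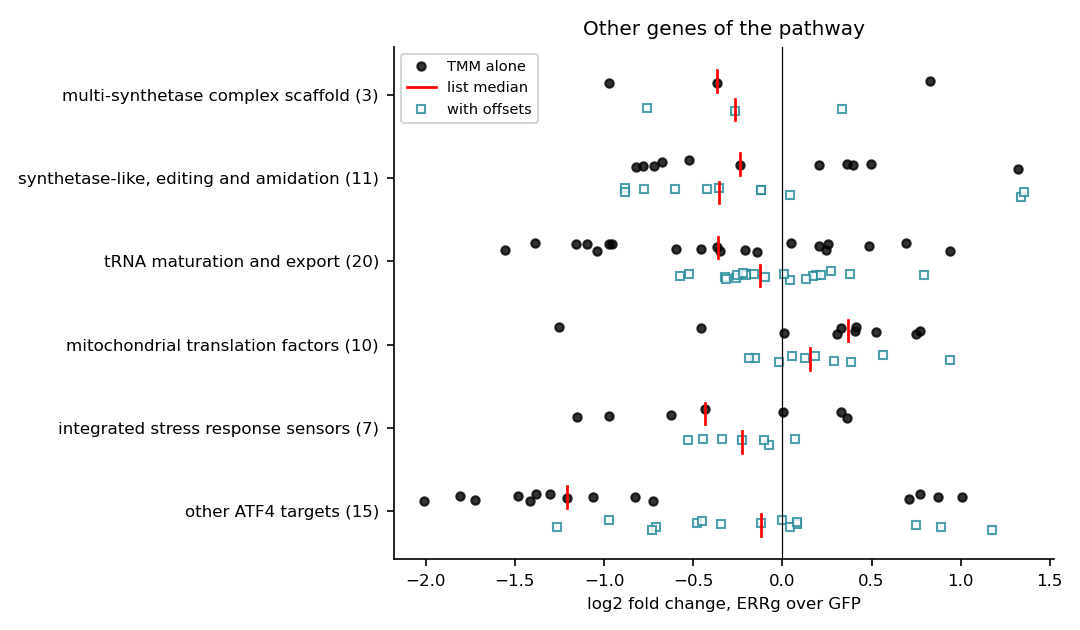
Log2 fold change (ERRg over GFP) of the tested genes of 6 lists around the synthetases, with TMM alone (black circles) and with the offsets (open squares), red lines marking list medians and the number of genes in brackets. The other ATF4 targets lie mostly left of 0 with TMM (median -1.21) and nearer to it with the offsets (median -0.12), and the mitochondrial translation factors lie mostly to the right (medians 0.37 and 0.15).

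Mitochondrial translation factors, which use the tRNAs charged by the mitochondrial enzymes, had 7 of 10 genes higher and 2 lower with TMM, and 6 higher and 2 lower with the offsets. Of coding genes 29% were higher and 50.6% lower with TMM, and 30.5% and 41.4% with the offsets. The count of higher factors was 4 with TMM without GFP replicate 4, 4 with no low-count filter and 3 with an offset for GC alone, and with the offsets it was 3 without GFP replicate 4 or ERRg replicate 1 or 2. MTIF2, the initiation factor, rose from 29.7 ± 1.08 to 50.7 ± 6.15 CPM, at 0.77 and 0.57, and the ribosome recycling factor GFM2 from 33.5 ± 3.24 to 48.2 ± 3.87 CPM, at 0.52 and 0.39. TUFM, the elongation factor that delivers charged tRNA, fell from 515 ± 67.8 to 216 ± 31.0 CPM, at -1.25, and by 0.16 with the offsets. MTRFR, a rescue factor, was lower with TMM at -0.46 and not called with the offsets at 0.05.

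In the list of synthetase-like, editing and amidation genes, 4 of 11 tested were higher (2 without GFP replicate 1 or 3) and 5 lower with TMM. With the offsets 2 were higher and 6 lower. Coding genes were 29% higher and 50.6% lower with TMM, and 30.5% and 41.4% with the offsets. TARS3, a further cytosolic threonine enzyme that the symbol rule leaves out, was at 8.08, 7.85, 10.7 and 9.00 CPM in GFP and at 25.9, 22.8, 20.1 and 20.3 CPM in ERRg. It rose by more than any member, at 1.32 and 1.34, with no overlap. DTD1, which removes D-amino acids from tRNA, fell at -0.82 and -0.88, and the glutamine amidation subunits GATB at -0.78 and -0.78 and GATC at -0.72 and -0.60. Of 20 tested tRNA maturation and export genes, 4 were higher and 11 lower with TMM, and 4 higher and 9 lower with the offsets, against the same shares of coding genes as for the translation factors. POP7 (-1.56 and -0.32), HSD17B10 (-1.39 and -0.20) and RTCB (-0.97 and -0.52), subunits of ribonuclease P, its mitochondrial form and the tRNA ligase, were lower in both fits. RPP25, another ribonuclease P subunit, was lower with TMM at -1.16 and not called with the offsets at 0.13.

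Of the 22 mitochondrial tRNA genes 10 are listed at 0 and 4 could be tested. MT-TF (1.33) and MT-TP (0.33) were higher, MT-TY (-1.68) was lower and MT-TC (-0.56) was not called. MT-TP, the only one above 3 CPM, ran from 47.9 to 68.7 CPM in GFP and from 68.0 to 76.6 CPM in ERRg, so the groups overlap, and its call was lost without GFP replicate 1 (0.15) or 3 (0.18).

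The ERRg libraries fell into 2 sets for many genes, the members among them. Replicates 1 and 2 lay below replicates 3 and 4 without overlap for 19 of 34 members and above them for 9, beside 33.8% and 25.5% of all genes tested. Of the mitochondrial members, 11 of 15 were lower in replicates 1 and 2, and of the cytosolic members 8 were lower and 8 higher. FARSA was at 72.0 CPM on average in replicates 1 and 2 and at 102 CPM in replicates 3 and 4, while NARS1 was at 248 and 199 CPM. Chi-square per gene between ERRg libraries was 2.72 within the first set and 4.54 within the second, against 8.74 to 19.5 across them. The labels do not say what replicates 1 and 2 share, and the 4 libraries may not be equally independent.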

How the data were processed

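The data are raw read counts per gene that the authors deposited in a single table, unnormalised, for 8 libraries of SH-SY5Y cells. The submitters' processing notes name STAR 2.7.8a, HTSeq 0.11.3, Trim Galore 0.6.6, DESeq2 and CASAVA, and the build GRCh38. The role of each tool, the annotation release and the strand setting are not given in the sources used. Neither library sizes nor tests used the 5 summary lines without a gene, which held reads outside exons (20.9% of reads in GFP, 46.7% in ERRg), in more than 1 gene (12.1% and 5.44%) or aligned more than once (11.9% and 6.41%).

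Libraries were grouped by the construct in their titles. Genes were compared with edgeR 4.0.16 in R 4.3.3 (TMM, filterByExpr, quasi-likelihood test, group as the sole term, two-sided, Benjamini-Hochberg adjusted p under 0.05 over 21993 genes). A fit of 13426 coding genes added gene offsets, natural splines with 5 degrees of freedom of GC content, log2 length of the longest transcript and log2 span per library, from GENCODE release 29. CPM use TMM effective library sizes, levels per kb divide them by the union of exons, and SE is the log2 fold change over the root of the F statistic. Depth allowed 65% of simulated log2 changes of 0.5 and 97% of those of 1 to be recovered with TMM over 22017 genes, and 64.6% and 97% with offsets over 13424 genes. False calls made up 6.94% and 6.4% of calls in these simulations. The simulations changed only 99 or 100 genes of each size and used the same dispersion for every gene. The TMM simulation held no GC trend, unlike these data, so these shares do not measure the false calls of the real fits.

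Nothing in the labels says that replicates are separate cultures. The p-values then reflect only how far these samples differ, which may be technical. No pair of libraries was a duplicate (chi-square of counts per gene 2.72 to 35.1). The members, gene lists, motifs and tests were chosen with earlier results of these data known. Some members are counted in each total but not reported one by one here. The text names the other members, ESRRG, each gene of a list of up to 7 genes, the 4 genes with the smallest p of longer lists, and ASNS, DDIT3, TRIB3 and CHAC1. Any other gene named is marked as chosen later or belongs to a marker list, a motif or an overlap. Alternatives were DESeq2 1.42.0 (size factors and Wald test), limma-voom (limma 3.58.1), upper-quartile factors, library totals, other filters, coding genes alone, an offset for GC alone, the replicate number as a block, an adjusted p under 0.01, a threshold of 1 on the log2 fold change, and each library left out.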

Additional observations from a re-analysis of the deposited data

Results flagged for a closer look

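Among 106 checks of 4 values each for a library far from its group, 2 stood out, and chance alone marks about 1 in 20. NARS1 in GFP replicate 3 was at 171.8 CPM, while the other GFP libraries lay between 150 and 153.3 CPM. It was the GFP library nearest to the ERRg group, and the lowest ERRg library was at 192 CPM. PARS2 in GFP replicate 2 was at 18.15 CPM, while the other GFP libraries lay between 13.97 and 14.57 CPM and the highest ERRg library was at 7.78 CPM. Both genes kept their call with each library left out in turn, in the TMM fit and in the fit with offsets.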

How the results depend on the processing

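Of the 34 members, all 34 stayed on their side of the threshold with DESeq2 size factors and limma-voom, although the uncalled value of EPRS1 turned sign with DESeq2 size factors (-0.016) and the DESeq2 Wald test (-0.051). With library totals, and among the members reported one by one, the log2 fold change turned sign for CARS1 (0.060), GARS1 (0.12), IARS1 (0.016), HARS2 (0.19), IARS2 (0.31), LARS2 (0.16), MARS2 (0.36), NARS2 (0.31), WARS2 (0.34) and YARS2 (0.0049). With upper-quartile factors it turned for GARS1 (0.024), HARS2 (0.091), IARS2 (0.21), LARS2 (0.056), MARS2 (0.26), NARS2 (0.21) and WARS2 (0.24), and with coding genes alone for GARS1 (0.034), HARS2 (0.10), IARS2 (0.22), LARS2 (0.066), MARS2 (0.27), NARS2 (0.22) and WARS2 (0.25). With an offset for GC alone it turned for AARS2 (0.19), CARS1 (0.21), EPRS1 (-0.14), GARS1 (0.032), HARS2 (0.20), LARS1 (-0.0030), LARS2 (0.23), MARS2 (0.25), RARS2 (-0.031), YARS1 (0.042) and YARS2 (0.014). With the offsets for GC, length and span it turned for AARS2 (0.23), CARS1 (0.12), EPRS1 (-0.19), GARS1 (0.064), HARS2 (0.43), LARS1 (-0.026), LARS2 (0.032), MARS2 (0.50), RARS2 (-0.015), YARS2 (0.063) and for the ratios EPRS1/EARS2 (-0.12), LARS1/LARS2 (-0.058) and FARSA/FARS2 (0.67). The cause was not tested.

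Counts moved by more than 1.5 times as follows, given as higher or lower in ERRg. Library totals gave 6 higher and 8 lower cytosolic synthetases, 5 and 5 mitochondrial synthetases, 1 lower mitochondrial translation factor, 1 lower scaffold gene, 3 lower synthetase-like genes, 8 higher and 7 lower tRNA maturation genes, and summed log2 ratios of -0.041 for cytosolic, 0.027 for mitochondrial and -0.028 for all members. Upper-quartile factors gave 6 higher cytosolic and 3 higher mitochondrial synthetases, 1 lower translation factor, 1 lower scaffold gene, 7 higher tRNA maturation genes, and sums of -0.14, -0.072 and -0.13. Coding genes alone gave 6 higher cytosolic synthetases, 4 higher and 6 lower mitochondrial synthetases, 1 lower translation factor, 1 lower scaffold gene and 7 higher tRNA maturation genes. An offset for GC alone gave 4 higher and 6 lower mitochondrial synthetases, 0 higher stress sensors, 3 higher and 1 lower translation factors, 2 higher synthetase-like and 2 higher tRNA maturation genes. The offsets for GC, length and span gave 3 higher mitochondrial synthetases, 0 higher stress sensors, 7 lower ATF4 targets and 2 higher synthetase-like genes.

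Tested against a change of 1 on the log2 scale, the fit called 0 cytosolic synthetases higher and 3 lower and 0 mitochondrial synthetases higher and 1 lower (7.69% and 10.5% of all genes). In the other lists it called 0 higher and 0 lower stress sensors, 0 higher mitochondrial tRNA genes, 0 higher and 1 lower translation factors, 0 higher and 0 lower scaffold genes, 0 higher ATF4 targets, 1 higher and 0 lower synthetase-like genes, and 0 higher and 2 lower tRNA maturation genes. With an adjusted p under 0.01 there were 0 higher mitochondrial synthetases, 4 higher translation factors and 1 lower scaffold gene. With no low-count filter there were 0 higher mitochondrial synthetases, 2 lower mitochondrial tRNA genes and 4 higher translation factors, and with at least 10 reads in every library 5 higher cytosolic synthetases, 1 higher and 0 lower mitochondrial tRNA genes and 1 lower scaffold gene. The DESeq2 Wald test gave 0 higher mitochondrial synthetases and 1 higher mitochondrial tRNA gene, and DESeq2 size factors 2 lower mitochondrial tRNA genes.

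Leaving out each library in turn gave from 0 to 1 higher mitochondrial synthetases, 1 to 2 lower scaffold genes, 2 to 4 higher synthetase-like genes, 4 to 7 higher translation factors, 0 to 2 higher stress sensors, and 1 to 2 higher and 1 to 2 lower mitochondrial tRNA genes, and with the offsets 1 to 2 higher cytosolic synthetases and 3 to 6 higher translation factors. The synthetase calls lost were those of LARS1 without GFP replicate 4 (0.20), HARS2 without ERRg replicate 1 (-0.20) or 2 (-0.22), LARS2 without ERRg replicate 2 (-0.22) and RARS2 (0.12 to 0.24, each library but ERRg replicate 3), and with the offsets EPRS1 (-0.18 to -0.14), HARS1 (-0.14 to -0.10), RARS1 (0.11) and CARS2 (-0.12). Replicate numbers did not pair the libraries (correlations of deviations between same-numbered libraries 0.083, -0.14, -0.069 and -0.048). The replicate block gave 0 higher mitochondrial synthetases, ended the calls of HARS2 (-0.21), LARS2 (-0.25) and RARS2 (0.25) and, with the offsets, that of HARS1 (-0.12), and changed no other synthetase call. PARS2 rests on the fewest reads, 141 at the lowest.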
